A study of Mus musculus with 19 samples.

Results

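Genes that write, remove or support histone lysine methylation were followed in embryonic mouse neocortex with conditional deletion of *Ino80*, alone or together with *Trp53*. The group comprised 32 genes out of the 51912 in the count files, named by symbol as lysine methyltransferases, lysine demethylases and subunits of polycomb repressive complex 2 (PRC2). The rule used no measured value, but the genes were proposed with earlier results of these data known, which bears on every count below. In cKO-E cortex 10 of the 32 genes fell (31.2%, where 9.88% of all genes tested fell) and 0 rose, at an adjusted p under 0.05. *Suz12*, a core gene of PRC2, and *Kmt2d*, an H3K4 methyltransferase, had the smallest p values. In dKO-E cortex 5 genes fell, where 10% of all genes fell, and each of them had also fallen in cKO-E, while *Kdm5a* rose. Together these were 18.8% of the members, near the 15.5% of all genes called, so the dKO-E count does not set the members apart. When the mutants were compared directly, 5 genes were higher in dKO-E, where 5.59% of all genes were, and 0 were lower, where 9.42% were. In both directions together 15.6% of the members were called, near the 15% of all genes, so this total does not set the members apart either. Of these 5 calls, those for *Suz12* and *Suv39h1* held with any 1 of the 12 mutant embryos left out.

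The libraries came from E13.5 cortex of mice on a mixed C57BL/6 and 129 background, with 1 library per embryo. cKO-E embryos (n = 5) were *Emx1* Cre/+ and *Ino80* fl/fl, and so were designed to lose *Ino80*, the ATPase of a nucleosome remodelling complex, in cortical progenitors and their descendants. dKO-E embryos (n = 7) carried both of these and in addition *Trp53* fl/fl, for loss of p53 in the same cells. They were compared with 7 control embryos (ctrl), whose alleles the labels do not give further. The Cre driver acts in the *Emx1* lineage, so vessels, microglia and interneurons in the same tissue kept both genes. The ctrl embryos were 4 females and 3 males from 4 litters, the cKO-E embryos 4 females and 1 male from 5 litters, and the dKO-E embryos 2 females and 5 males from 2 litters. No litter gave both cKO-E and dKO-E, so litter and genotype cannot be told apart between the mutants. Sequencing batch 1 held 4 ctrl, 3 cKO-E and 4 dKO-E libraries, batch 2 held 3, 2 and 2, and batch 3 held 1 dKO-E library.

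Lysines of histone H3 carry methyl groups that are placed by methyltransferases, taken off by demethylases and read by other proteins. H3K4 methylation marks active promoters and enhancers, H3K36 and H3K79 methylation accompany transcribed gene bodies, and H3K9 methylation marks heterochromatin. H3K27 trimethylation is placed by PRC2 and keeps developmental genes silent. In cortical progenitors PRC2 is known to pace the switch from self-renewal to neurogenesis and from neurogenesis to gliogenesis.

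The promoters of 3 members are shown because *Suz12* and *Kmt2d* had the smallest p values in cKO-E and *Suv39h1* the largest difference between the mutants. The sequences are from RefSeq on GRCm38.p6 and give the 250 bases before the annotated start, 5′ to 3′. Capitals mark a match to an E2F motif.
Suz12, chr11:79992856-79993105, plus strand: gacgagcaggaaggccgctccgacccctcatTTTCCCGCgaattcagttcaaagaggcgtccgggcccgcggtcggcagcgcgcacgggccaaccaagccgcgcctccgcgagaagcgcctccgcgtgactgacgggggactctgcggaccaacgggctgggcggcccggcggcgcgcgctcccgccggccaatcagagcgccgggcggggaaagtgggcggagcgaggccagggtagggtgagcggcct
Suv39h1, chrX:8074761-8075010, minus strand: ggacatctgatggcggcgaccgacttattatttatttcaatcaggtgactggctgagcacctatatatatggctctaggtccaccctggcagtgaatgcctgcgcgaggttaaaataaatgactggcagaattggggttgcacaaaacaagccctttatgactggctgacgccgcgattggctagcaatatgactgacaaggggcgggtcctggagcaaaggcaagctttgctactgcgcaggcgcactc
Kmt2d, chr15:98871206-98871455, minus strand: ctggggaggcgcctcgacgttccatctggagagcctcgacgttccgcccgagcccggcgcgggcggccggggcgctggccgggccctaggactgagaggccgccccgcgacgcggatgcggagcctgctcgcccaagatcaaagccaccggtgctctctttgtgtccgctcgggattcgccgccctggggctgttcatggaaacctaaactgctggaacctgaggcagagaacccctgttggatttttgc
RefSeq windows from 250 bases before to 50 bases after a start were on hand for 22 of the 32 members, as 31 windows. They were not found in that table for *Kmt2b*, *Kmt2e*, *Setd1b*, *Nsd1*, *Ash1l*, *Kdm5a*, *Kdm2a*, *Kdm3b*, *Kdm4b* and *Kdm6b*. The members' windows had a median GC content of 64.3%, against 52.7% over all 32851 windows, and a median of 28 CpG dinucleotides, against 7. The E2F motif was searched on both strands as TTTCCCGC, TTTCGCGC, TTTGCCGC or TTTGGCGC. It was present in 2.26% of all windows and in 3 of the 31 members' windows, those of *Ezh2*, *Suz12* and *Suv39h1*. The match in *Suz12* began at position -219 from the start. The match in *Suv39h1* lay in a window of another annotated start than the one printed. The YY1 motif, AANATGGC on either strand, was present in 6.05% of all windows and in 6 of the members' windows, belonging to *Kmt2a*, *Dot1l*, *Ehmt2*, *Suv39h1*, *Suv39h2* and *Jarid2*. Matches with these 2 motifs did not overlap each other in the members' windows.

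Whole-gene counts of *Ino80* were higher in the mutants, at 122 ± 8.73 CPM (SD, n = 7), 167 ± 14.8 CPM (SD, n = 5) and 187 ± 13.8 CPM (SD, n = 7). The loxP sites flank only some exons of *Ino80*, so these counts do not check the deletion. *Trp53* counts were 43.9 ± 5.21 CPM (SD, n = 7) for ctrl and 34.8 ± 4.96 CPM (SD, n = 7) for dKO-E, and the log2 fold change was -0.36 (SE 0.10, edgeR adjusted p = 0.0196). Total counts on genes were 820915 to 8095810 per library with a median of 2952788, and the cKO-E group held the shallowest library. All 32 members had enough counts to be tested in every comparison, with 8 counts as the lowest value of any member, for *Ezh1* in a dKO-E library. Libraries of the same group correlated at 0.949 to 0.988 on the log scale, and no pair agreed within sampling noise (chi-square per degree of freedom of 1.41 to 10.9).

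Expression is given as CPM, the counts of a gene scaled to a common library size with TMM factors. CPM is not divided by gene length, so levels are compared between embryos and never between genes. A gene was called at an adjusted p under 0.05 over all genes tested. Over all genes, 7.31% were called higher and 9.88% lower in cKO-E than in ctrl. The shares were 5.45% and 10% for dKO-E against ctrl, and 5.59% and 9.42% for dKO-E against cKO-E. In a bulk sample, fewer cells of a type and less RNA per cell cannot be told apart. Both mutants were compared with the same ctrl embryos, so the 2 comparisons with ctrl are not independent.

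In cKO-E against ctrl, 10 of the 32 members fell (31.2% of them, against 9.88% of all genes) and 0 rose by edgeR's quasi-likelihood test, while 2 were higher at an unadjusted p under 0.05. DESeq2 also called 10 lower and 0 higher, and the likelihood-ratio test called 11 lower, with *Suv39h2* added, and 0 higher. *Kdm5a* was called higher with upper quartile factors, total counts, at least 10 counts in every library, batch as a covariate or 1 fit over all 19 libraries (adjusted p = 0.0387 to 0.049), and without cKO-E C (adjusted p = 0.0327). The median log2 fold change of the members was -0.12, against 0.02 over all genes, and 24 of 32 were below 0. In 8 members, all of those that fell except *Setd1b* and *Dot1l*, every cKO-E embryo lay below every ctrl embryo, as it did for 5.56% of all genes, and in 0 did every cKO-E embryo lie above (3.21% of all genes). At the stricter rate of 0.001, *Suz12* and *Kmt2d* passed, with 2.32% of all genes lower and 1.06% higher.

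In dKO-E against ctrl, 5 members fell against a background of 10% and 1 rose against 5.45%. Together 18.8% of the members were called, near the 15.5% of all genes. The likelihood-ratio test and DESeq2 called the same 6 genes. Over the 32 members the median log2 fold change was -0.06, against 0.01 over all genes. In 3 members, *Nsd1*, *Kmt2a* and *Kmt2e*, every dKO-E embryo lay below every ctrl embryo (3.22% of all genes), and in 0 members above (1.21%). This split depended on scaling, since with total counts alone 6 members were called higher and 2 lower, while the median of all genes moved to 0.10. *Kmt2e*, *Setd1b* and *Kdm5a* kept their calls, *Kmt2a*, *Kmt2d* and *Nsd1* lost theirs while staying below 0, and *Kmt2c*, *Setd2*, *Ehmt1*, *Ezh2* and *Kdm4b* were called higher. No member passed at 0.001 in this comparison, where 2.34% of all genes were lower and 0.246% higher, and 8 members passed at an unadjusted p under 0.05.

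In dKO-E against cKO-E, 5 members were higher against a background of 5.59%. In both directions together 15.6% of the members were called, near the 15% of all genes. DESeq2 called 4 of the 5 members higher and the likelihood-ratio test 3 of them. By edgeR and DESeq2 0 were lower, with 1 lower at an unadjusted p under 0.05 (background 9.42%). Values were above 0 for 28 of the 32 members, and the median was 0.06 on the log2 scale against 0.02 over all genes. In 2 members, *Suz12* and *Ash1l*, every dKO-E embryo lay above every cKO-E embryo (2.43% of all genes), and in 0 below (4.66%). No member passed at 0.001, where 0.383% of all genes were higher and 2.75% lower, and 10 passed at an unadjusted p under 0.05.

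**Figure D1:**
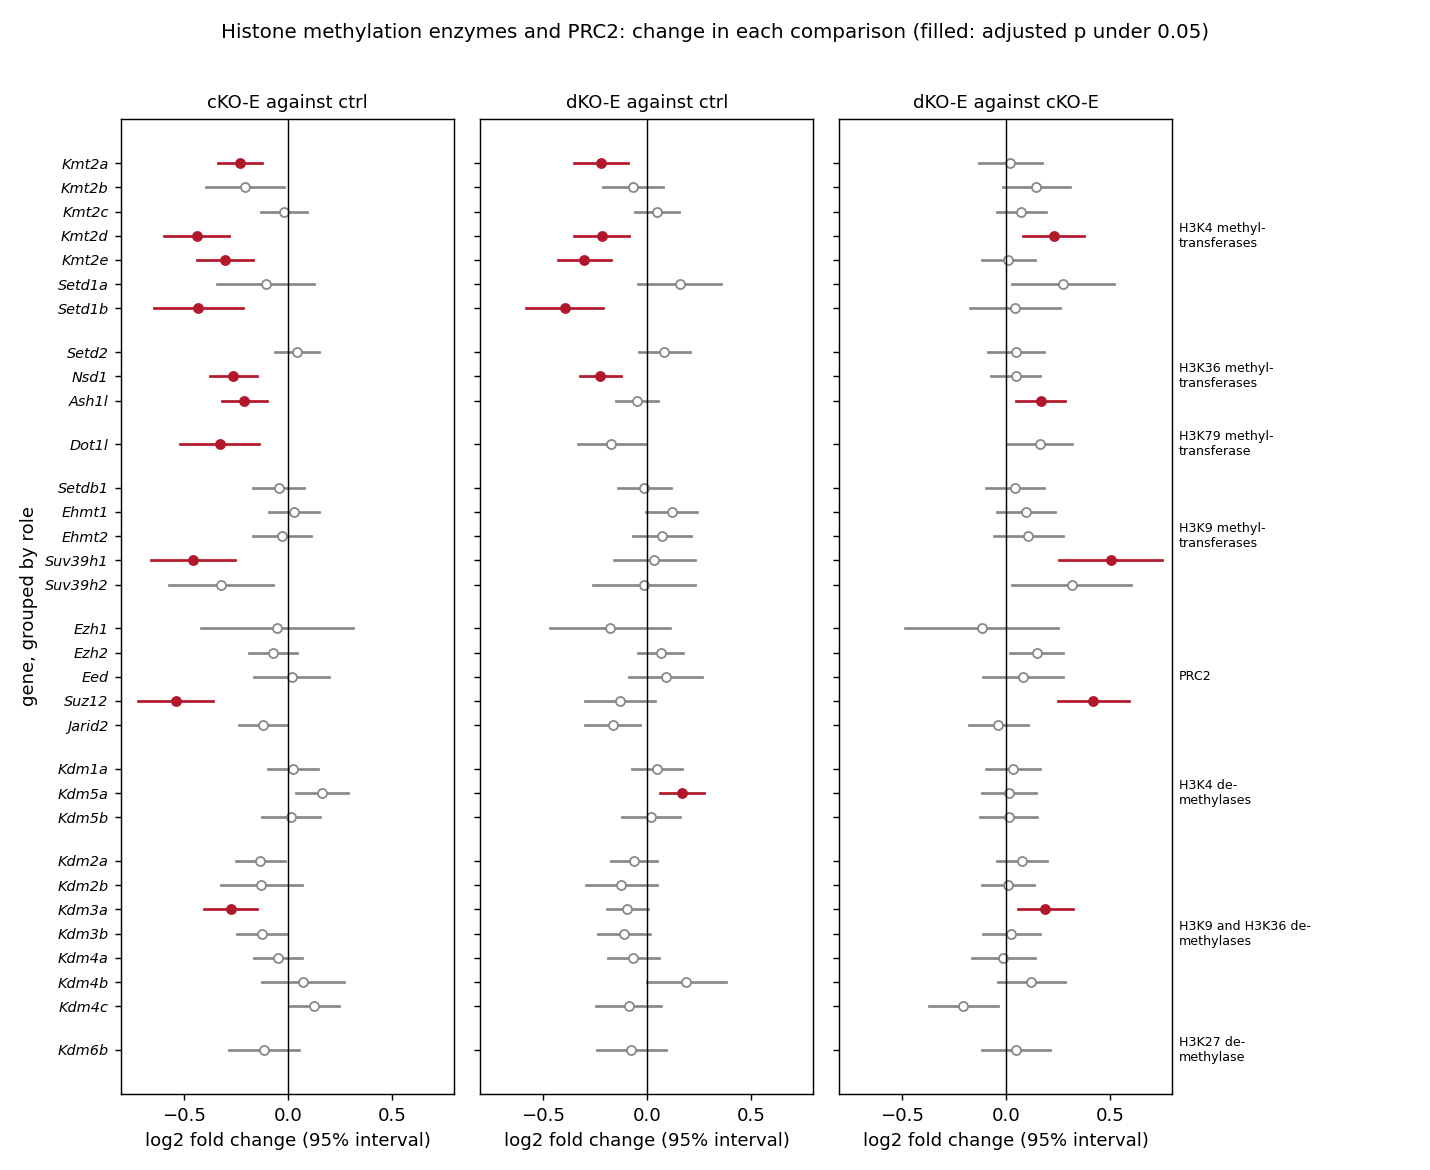
Log2 fold change (horizontal axis, with 95% interval) of the 32 genes, grouped by role, in the 3 comparisons; filled red points passed an adjusted p under 0.05. Filled points lie left of 0 for 10 genes in cKO-E and 5 in dKO-E against ctrl, and right of 0 for 5 genes in dKO-E against cKO-E.

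By number of genes, the H3K4 methyltransferases held the most falls in both mutants, where 9.88% (cKO-E) and 10% (dKO-E) of all genes fell. By share of a role in cKO-E, the H3K36 methyltransferases (2 of 3, 66.7%) and the 1 H3K79 methyltransferase stood above them (57.1%). In cKO-E 4 of the 7 fell, namely *Kmt2a*, *Kmt2d*, *Kmt2e* and *Setd1b*, and the same 4 fell in dKO-E, although with total counts as the scaling *Kmt2a* and *Kmt2d* were not called there and *Kmt2c* was called higher. Summed over the 7 genes, CPM was 1867 to 2184 in ctrl, 1712 to 1848 in cKO-E and 1758 to 1999 in dKO-E, so that the cKO-E range lay below the ctrl range.

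*Kmt2d* (ENSMUSG00000048154.16, chr15:98831669-98871204, minus strand) was at 194, 235, 193, 205 and 190.2 CPM in the 5 cKO-E embryos. It ran from 246 to 316 CPM in the 7 ctrl embryos (median 278) and from 213 to 266 CPM in the 7 dKO-E embryos (median 243). *Kmt2d* encodes the main monomethyltransferase of enhancers, and all cKO-E embryos lay below all ctrl embryos while the dKO-E embryos overlapped both groups. Its log2 fold change was -0.44 (SE 0.07, edgeR adjusted p = 0.000588) in cKO-E and -0.22 (SE 0.06, edgeR adjusted p = 0.0263) in dKO-E. The direct difference between the mutants was 0.23 (SE 0.07, adjusted p = 0.0311). The dKO-E call against ctrl was lost without any of ctrl A, ctrl B, dKO-E D, dKO-E E or dKO-E F (adjusted p = 0.059 to 0.0656), and the difference between mutants was lost without any of 7 embryos (cKO-E A, C, D or E, or dKO-E A, B or C), at adjusted p = 0.0507 to 0.095.

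*Setd1b* (ENSMUSG00000038384.16, chr5:123142193-123168629, plus strand) was at 49.8, 67.7, 58.3, 54.7 and 48.6 CPM in the 5 cKO-E embryos. It ran from 65.4 to 91.2 CPM in the 7 ctrl embryos (median 72.3) and from 43.5 to 66.5 CPM in the 7 dKO-E embryos (median 56.0). SETD1B is the catalytic subunit of a complex that trimethylates H3K4 at promoters. In each mutant the highest embryo reached into the low end of ctrl. The log2 fold change was -0.43 (SE 0.10, edgeR adjusted p = 0.00702) in cKO-E and -0.39 (SE 0.09, edgeR adjusted p = 0.00494) in dKO-E. The interval of the difference between the mutants was -0.17 to 0.26. The gene's whole span is overlapped by *Gm26745* on the other strand, which held 4 to 33 counts per library and up to 21.7% of the *Setd1b* count, and the strand setting of the counting is not given in the sources used here.

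*Kmt2e* (ENSMUSG00000029004.15, chr5:23434441-23504235, plus strand) was at 335, 344, 333, 366 and 338 CPM in the 5 cKO-E embryos. It ran from 382 to 467 CPM in the 7 ctrl embryos (median 433) and from 316 to 379.6 CPM in the 7 dKO-E embryos (median 344). *Kmt2e* encodes MLL5, a SET domain protein whose methyltransferase activity is not firmly established. All 12 mutant embryos lay below the lowest ctrl embryo, but the 3 ctrl embryos of batch 2 (382 to 389.9 CPM) were lower than the 4 of batch 1 (433 to 467 CPM). The log2 fold changes were -0.30 (SE 0.06, edgeR adjusted p = 0.00332) in cKO-E and -0.30 (SE 0.06, edgeR adjusted p = 0.00256) in dKO-E, and the mutants differed by 0.01 (95% interval -0.11 to 0.14). In batch 2 alone the values were -0.14 (adjusted p = 0.453) in cKO-E and -0.12 (adjusted p = 0.536) in dKO-E, by edgeR, and neither was called.

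*Kmt2a* (ENSMUSG00000002028.13, chr9:44803355-44881296, minus strand) was at 342, 355, 340.1, 339 and 363 CPM in the 5 cKO-E embryos. It ran from 392 to 429.8 CPM in the 7 ctrl embryos (median 402) and from 285 to 390.0 CPM in the 7 dKO-E embryos (median 363). *Kmt2a* encodes MLL1, which maintains the expression of developmental genes, including the Hox genes. Every mutant embryo was below the lowest ctrl embryo, and dKO-E spread more widely than cKO-E. The log2 fold changes were -0.23 (SE 0.05, edgeR adjusted p = 0.00431) and -0.22 (SE 0.06, edgeR adjusted p = 0.0217), and the dKO-E call was lost without dKO-E F (adjusted p = 0.0606). In batch 2 alone the dKO-E value was -0.38 (adjusted p = 0.0419).

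The other 3 genes of this role were not called in any comparison. *Kmt2b* was at 83.5 ± 9.22 CPM (SD, n = 7), 73.0 ± 7.68 CPM (SD, n = 5) and 80.3 ± 4.61 CPM (SD, n = 7) in ctrl, cKO-E and dKO-E. For *Kmt2c*, the partner enzyme of *Kmt2d* at enhancers, the 95% interval of the log2 fold change was -0.13 to 0.09 in cKO-E and -0.06 to 0.15 in dKO-E. *Setd1a* had 19 to 197 counts per library and log2 fold changes of -0.11 and 0.16, and 61.9% of its span is shared with other annotated genes.

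**Figure D2:**
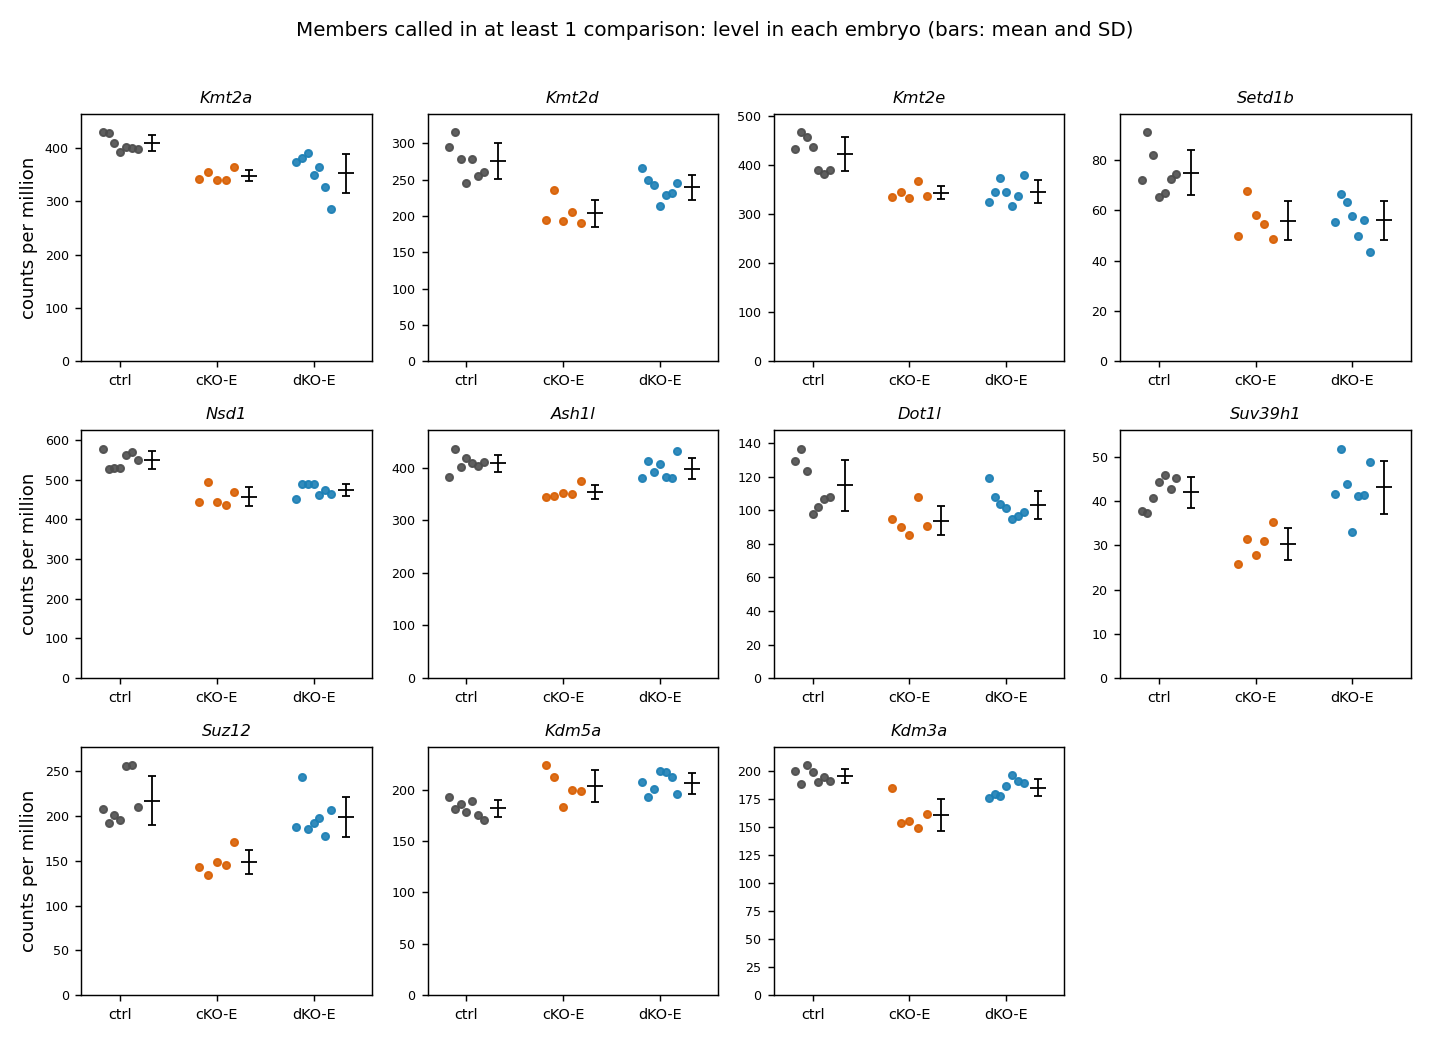
Expression in CPM (vertical axis, from 0) of the 11 genes called in at least 1 comparison, 1 point per embryo, with mean and SD beside the points. *Suz12* sits at 134 to 171 CPM in cKO-E, below all ctrl and all dKO-E embryos, whereas *Kmt2e* is low in both mutants.

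Among the H3K36 methyltransferases, *Nsd1* fell in both mutants and *Ash1l* in cKO-E. *Nsd1* (ENSMUSG00000021488.7, chr13:55209782-55318325, plus strand) was at 444, 495, 444, 436 and 469 CPM in the 5 cKO-E embryos. It ran from 527 to 578 CPM in the 7 ctrl embryos (median 551) and from 450.2 to 489 CPM in the 7 dKO-E embryos (median 474). NSD1 dimethylates H3K36, and no mutant embryo reached the lowest ctrl embryo. On the log2 scale its change was -0.26 (SE 0.05, edgeR adjusted p = 0.00281) in cKO-E and -0.22 (SE 0.05, edgeR adjusted p = 0.00279) in dKO-E.

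*Ash1l* (ENSMUSG00000028053.13, chr3:88950622-89079375, plus strand) was at 344, 346, 352, 349 and 375 CPM in the 5 cKO-E embryos. It ran from 383 to 436 CPM in the 7 ctrl embryos (median 408) and from 380.0 to 432 CPM in the 7 dKO-E embryos (median 392). ASH1L is a trithorax protein that methylates H3K36 and opposes polycomb silencing. The cKO-E embryos lay below all embryos of the other groups, which overlapped each other. *Ash1l* changed by -0.21 (SE 0.05, edgeR adjusted p = 0.00944) on the log2 scale in cKO-E, with -0.05 (SE 0.05, edgeR adjusted p = 0.548) in dKO-E and 0.17 (SE 0.06, adjusted p = 0.0494) between the mutants. That last call was lost without any of 10 of the 12 embryos (all except cKO-E E and dKO-E A), at adjusted p = 0.0503 to 0.116. *Setd2*, which places H3K36 trimethylation during transcription, was at 285 ± 12.7 CPM (SD, n = 7), 293 ± 6.71 CPM (SD, n = 5) and 304 ± 26.4 CPM (SD, n = 7) and was not called.

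*Dot1l* (ENSMUSG00000061589.14, chr10:80755206-80795461, plus strand) was at 94.96, 90.4, 85.1, 108 and 90.7 CPM in the 5 cKO-E embryos. It ran from 97.7 to 137 CPM in the 7 ctrl embryos (median 108) and from 95.03 to 119 CPM in the 7 dKO-E embryos (median 101). DOT1L is the H3K79 methyltransferase, and the groups overlapped in both comparisons with ctrl. It fell in cKO-E, with a log2 fold change of -0.33 (SE 0.09, edgeR adjusted p = 0.0173), and the value in dKO-E was -0.17 (SE 0.08, adjusted p = 0.149). The cKO-E call was lost without cKO-E C (adjusted p = 0.0587), and in batch 2 alone the value was -0.13 (adjusted p = 0.629).

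Of the 5 H3K9 methyltransferases, *Suv39h1* fell in cKO-E and was not called in dKO-E. *Suv39h1* (ENSMUSG00000039231.18, chrX:8061171-8074760, minus strand) was at 25.9, 31.4, 27.9, 31.1 and 35.3 CPM in the 5 cKO-E embryos. It ran from 37.2 to 46.0 CPM in the 7 ctrl embryos (median 42.8) and from 33.1 to 51.9 CPM in the 7 dKO-E embryos (median 41.7). SUV39H1 trimethylates H3K9 in pericentric heterochromatin. All cKO-E embryos were below all ctrl embryos, and 1 dKO-E embryo, dKO-E D at 33.1 CPM, lay within the cKO-E range. The log2 fold change was -0.46 (SE 0.10, edgeR adjusted p = 0.00334) in cKO-E, 0.04 (SE 0.09, edgeR adjusted p = 0.843) in dKO-E and 0.50 (SE 0.12, adjusted p = 0.00663) in dKO-E against cKO-E. The gene is X-linked and the cKO-E group was mostly female while the dKO-E group was mostly male. With sex as a covariate the values were -0.46 (adjusted p = 0.00403) in cKO-E and 0.60 (adjusted p = 0.0015) between the mutants. Of its span, 99% is overlapped by *Gm14820* on the other strand, which held 0 to 19 counts per library and up to 23.5% of the *Suv39h1* count.

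*Suv39h2*, the second enzyme of this pair, was at 35.3 ± 5.01 CPM (SD, n = 7), 28.5 ± 4.41 CPM (SD, n = 5) and 35.6 ± 8.24 CPM (SD, n = 7). Its log2 fold change of -0.32 (SE 0.12, edgeR adjusted p = 0.0713) in cKO-E did not pass. The enzymes of H3K9 mono- and dimethylation in euchromatin, *Ehmt1* and *Ehmt2*, and the repeat-silencing enzyme *Setdb1* had log2 fold changes of 0.03, -0.03 and -0.04 in cKO-E. In dKO-E they were 0.12, 0.07 and -0.01, and 0 of the 5 genes of this role passed against ctrl there, also at an unadjusted p under 0.05.

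In PRC2, *Suz12* fell in cKO-E while the other subunits were not called in any comparison. *Suz12* (ENSMUSG00000017548.15, chr11:79993106-80034123, plus strand) was at 143, 134, 149, 145 and 171 CPM in the 5 cKO-E embryos. It ran from 193 to 257 CPM in the 7 ctrl embryos (median 208) and from 178 to 244 CPM in the 7 dKO-E embryos (median 193). SUZ12 is the scaffold subunit that PRC2 needs for its stability and activity. The cKO-E embryos were below all embryos of the other groups, and ctrl and dKO-E overlapped. The log2 fold change was -0.54 (SE 0.09, edgeR adjusted p = 0.000364) in cKO-E, a fall of 31.2%, and -0.13 (SE 0.08, edgeR adjusted p = 0.298) in dKO-E. The dKO-E embryos exceeded cKO-E by 0.42 (SE 0.08, adjusted p = 0.00158), and in batch 2 alone by 0.22 (adjusted p = 0.559). Of the span of *Suz12*, 30.5% is overlapped by *Gm26563* on the other strand, which held at most 1.26% of the *Suz12* count.

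*Ezh2*, the main catalytic subunit in progenitors, was at 504 ± 23.8 CPM (SD, n = 7), 480.2 ± 23.3 CPM (SD, n = 5) and 532 ± 31.6 CPM (SD, n = 7). The 95% interval of its log2 fold change was -0.19 to 0.04 in cKO-E and -0.04 to 0.17 in dKO-E. *Eed*, which binds H3K27 trimethylation, was at 51.5 ± 4.88 CPM (SD, n = 7), 52.1 ± 4.31 CPM (SD, n = 5) and 55.9 ± 7.34 CPM (SD, n = 7). *Jarid2*, which recruits PRC2 to its targets, had log2 fold changes of -0.12 and -0.16 in cKO-E and dKO-E, and *Ezh1*, the alternative catalytic subunit, of -0.05 and -0.18. The summed CPM of the 5 subunits was 994 to 1099 in ctrl, 899.8 to 984 in cKO-E and 957 to 1119 in dKO-E.

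Among the demethylases, *Kdm3a* fell in cKO-E and *Kdm5a* rose in dKO-E. *Kdm3a* (ENSMUSG00000053470.13, chr6:71588972-71632990, minus strand) was at 185, 154, 155, 149 and 161 CPM in the 5 cKO-E embryos. It ran from 189 to 205 CPM in the 7 ctrl embryos (median 195) and from 176 to 197 CPM in the 7 dKO-E embryos (median 187). KDM3A removes mono- and dimethylation from H3K9, and the cKO-E embryos lay below all ctrl embryos, with cKO-E A the highest of them. The log2 fold change was -0.28 (SE 0.06, edgeR adjusted p = 0.00419) in cKO-E, -0.09 (SE 0.05, edgeR adjusted p = 0.191) in dKO-E and 0.19 (SE 0.06, adjusted p = 0.049) between the mutants, the last of which was lost without any of 10 of the 12 embryos (all except cKO-E A and dKO-E A), at adjusted p = 0.0557 to 0.133.

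*Kdm5a* (ENSMUSG00000030180.15, chr6:120364124-120444574, plus strand), which removes H3K4 di- and trimethylation, was at 224, 212, 183, 200.0 and 199 CPM in the 5 cKO-E embryos. It ran from 170.2 to 193 CPM in the 7 ctrl embryos (median 181) and from 193 to 219 CPM in the 7 dKO-E embryos (median 208). The lowest dKO-E embryo lay just under the highest ctrl embryo, and cKO-E overlapped both. The log2 fold change for dKO-E was 0.17 (SE 0.05, edgeR adjusted p = 0.0265), lost without ctrl I or dKO-E D (adjusted p = 0.0534 to 0.0646), and for cKO-E it was 0.16 (SE 0.06, adjusted p = 0.0671), which passed under the 5 alternatives given above and without cKO-E C. The other H3K4 demethylases, *Kdm1a* and *Kdm5b*, had log2 fold changes of 0.02 and 0.02 in cKO-E and 0.05 and 0.02 in dKO-E. The remaining 6 genes of H3K9 and H3K36 demethylation, *Kdm2a*, *Kdm2b*, *Kdm3b*, *Kdm4a*, *Kdm4b* and *Kdm4c*, were not called in any comparison. Their log2 fold changes ran from -0.13 for *Kdm2a* to 0.12 for *Kdm4c* in cKO-E and from -0.12 for *Kdm2b* to 0.19 for *Kdm4b* in dKO-E. *Kdm6b*, the H3K27 demethylase of the list, was at 104 ± 11.4 CPM (SD, n = 7), 96.9 ± 5.91 CPM (SD, n = 5) and 99.6 ± 10.2 CPM (SD, n = 7) and was not called.

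Sorted by their calls, *Kmt2a*, *Kmt2e*, *Setd1b* and *Nsd1* fell in both mutants with no call between the mutants, and *Kmt2d* fell in both and was higher in dKO-E than cKO-E. *Suz12*, *Suv39h1*, *Kdm3a* and *Ash1l* fell in cKO-E, were not called in dKO-E and were higher in dKO-E than cKO-E. *Dot1l* fell in cKO-E, was not called in dKO-E and had no call between the mutants. *Kdm5a* rose in dKO-E and was called neither in cKO-E nor between the mutants, and 21 genes had no call in any comparison.

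Sequencing batches were examined separately. In cKO-E against ctrl, all 10 called members were lower in batch 1 (log2 fold changes of -0.51 to -0.24, all 10 called) and in batch 2 (-0.58 to -0.13, 2 called, with 2 cKO-E embryos). In dKO-E against ctrl, the 6 called members kept their sign in each batch, with 2 called in batch 1 and 1 in batch 2. Between the mutants the 5 called members were higher in dKO-E in each batch, with 2 called in batch 1 and 0 in batch 2. *Suz12* in dKO-E against ctrl was at 0.01 in batch 1 and -0.35 in batch 2, a difference that was not tested, and the ctrl embryos F and H of batch 2 were its highest, at 256 and 257 CPM.

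**Figure D3:**
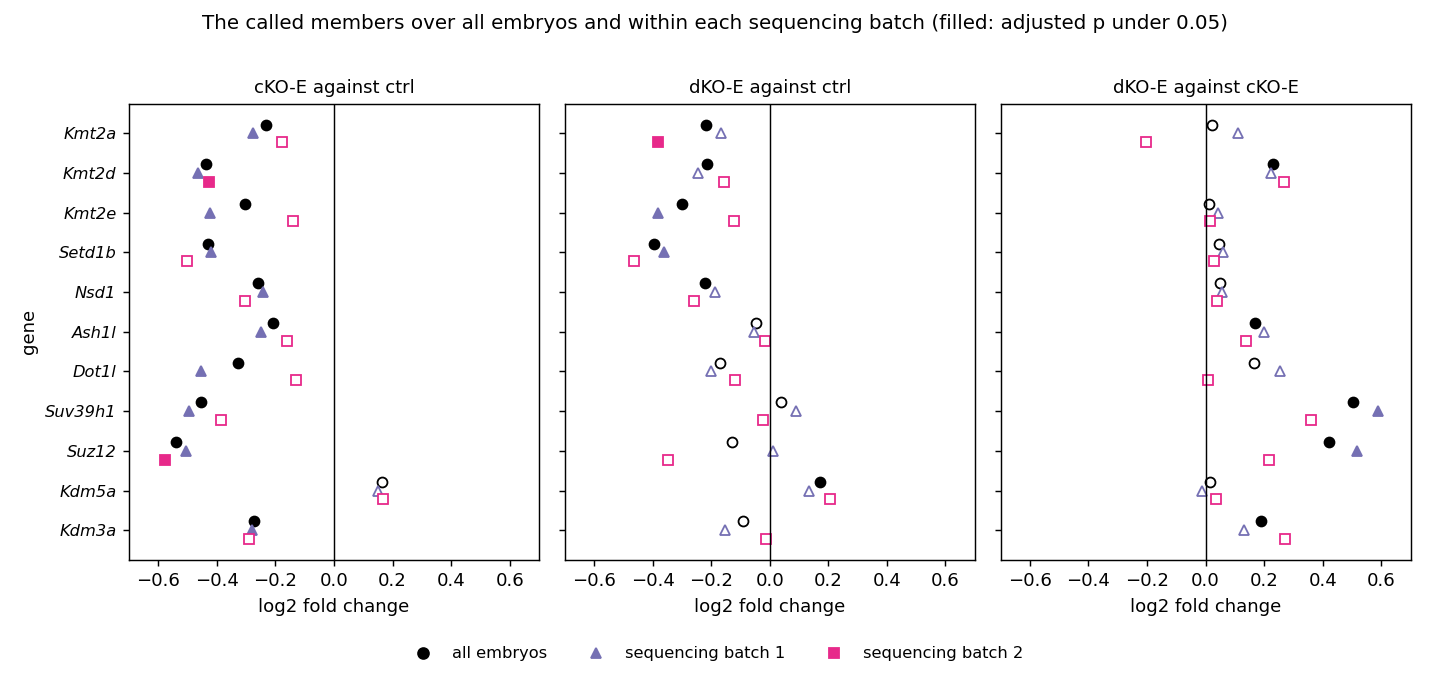
Log2 fold change (horizontal axis) of the 11 called genes over all embryos (black circles), in sequencing batch 1 (triangles) and in sequencing batch 2 (squares); filled symbols passed an adjusted p under 0.05. In cKO-E against ctrl, all 3 symbols of each of the 10 genes that fell lie left of 0.

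Partner subunits, readers and further enzymes of histone methylation were examined beside the members, and 69 of 75 listed genes were tested. In cKO-E 20 of 69 fell (29%, against 9.88% of all genes) and 0 rose by edgeR and DESeq2, with 1 higher at an unadjusted p under 0.05. In dKO-E 9 fell and *Paxip1* rose, a split that became 4 lower and 5 higher with total counts as the scaling. Together these were 14.5% of the genes tested, against 15.5% of all genes called in that comparison, so they do not set this list apart. Between the mutants 11 were higher in dKO-E (15.9%, against 5.59% of all genes) and 0 lower, again with 1 lower at an unadjusted p under 0.05. In both directions together 15% of all genes were called in this comparison, so this total does not set the list apart either.

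The counts by list stand beside shares of 9.88% of all genes that fell in cKO-E and 10% in dKO-E. PRC1 subunits, which form the other polycomb complex, fell in 8 of 18 cases in cKO-E and 3 of 18 in dKO-E. COMPASS and MLL partner subunits, which bind the H3K4 methyltransferases, fell in 4 of 11 and 1 of 11. Other lysine methyltransferases fell in 3 of 15 and 1 of 15, other lysine demethylases in 3 of 10 and 3 of 10, and H3K9 readers and corepressors in 2 of 9 and 1 of 9. The counts of 1 gene in dKO-E lie near the background share. Of the 6 tested accessory subunits of PRC2, 0 were called in any comparison by edgeR, and 0 at an unadjusted p under 0.05.

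The PRC1 genes called lower in both mutants were *Phc3*, *Scmh1* and *L3mbtl2*. For *Scmh1* the log2 fold change was -0.39 (cKO-E) and -0.21 (dKO-E), for *Phc3* -0.28 and -0.26, and for *L3mbtl2* -0.47 and -0.34. *Ash2l*, a core subunit of the H3K4 methyltransferase complexes, had -0.32 and -0.34. *Smyd3* had -0.20 and -0.25, and *Atf7ip*, a partner of SETDB1, had -0.32 and -0.17. The X-linked demethylase genes *Kdm5c* and *Phf8* had -0.41 and -0.65 and, for the latter, -0.27 and -0.27. With sex as a covariate *Kdm5c* was at -0.52 (adjusted p = 2.84e-05) in cKO-E and -0.53 (adjusted p = 6.9e-05) in dKO-E, by edgeR in each case.

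Some of these calls were lost with an embryo left out. In cKO-E, *Smyd3* lost its call without cKO-E B or E (adjusted p = 0.0528 to 0.0577), and *Kdm5c* lost it without any of ctrl A, C, F or H or cKO-E A, C, D or E (0.0516 to 0.115). In dKO-E, *Ash2l* lost its call without any of ctrl A, C, D, H or I or dKO-E C or F (0.0517 to 0.0682), and *L3mbtl2* without any of ctrl B, D or F or dKO-E A, C, E or F (0.0516 to 0.0841). *Atf7ip* lost it without dKO-E B or C (0.0504 to 0.0707) and *Paxip1* without ctrl D (0.0507).

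Genes higher in dKO-E than cKO-E included the H3K4 partners *Dpy30* (log2 fold change 0.45), *Hcfc1* (0.24) and *Paxip1* (0.27). From PRC1 they were *Rnf2* (0.23), which encodes its ubiquitin ligase, *Pcgf2* (0.34) and *Scmh1* (0.20). The others were *Uhrf1* (0.37), which couples H3K9 methylation to DNA methylation, *Rcor2* (0.32), a partner of KDM1A, *Trim28* (0.18), *Phf2* (0.25) and *Setd7* (0.22). *Paxip1* was also higher in dKO-E than in ctrl, by 0.21 (SE 0.06, edgeR adjusted p = 0.0225). Between the mutants, *Hcfc1*, *Paxip1* and *Uhrf1* lost their calls without cKO-E C (adjusted p = 0.0738, 0.0662 and 0.0508), and *Pcgf2* without cKO-E B (0.0527). *Setd7* lost it without cKO-E B or C or dKO-E D (0.0597 to 0.0944), *Rnf2* without cKO-E B, C or D or dKO-E A to D (0.053 to 0.121), *Scmh1* without cKO-E A to D or dKO-E B, C or F (0.0503 to 0.086), and *Trim28* without any cKO-E embryo or dKO-E A, B or E (0.0576 to 0.0921).

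Markers of cell type and cell state moved with the groups as well. Their counts stand beside 9.88% of all genes lower and 7.31% higher in cKO-E than in ctrl. Between the mutants 9.42% of all genes were lower and 5.59% higher in dKO-E. Cell cycle markers summed to 1597 to 2103 CPM in ctrl, 1274 to 1685 in cKO-E and 1468 to 2145 in dKO-E, with 2 of 10 lower in cKO-E and 4 of 10 higher in dKO-E than cKO-E. Apical progenitor markers summed to 1321 to 1506, 1114 to 1436 and 1216 to 1436 CPM, with 5 of 9 lower and 1 higher in cKO-E, and intermediate progenitor markers to 371 to 453, 294 to 386 and 298 to 447 CPM, with 2 of 5 lower in cKO-E. Cortical neuron markers summed to 2794 to 4141, 3391 to 4077 and 2329 to 3266 CPM, with 4 of 8 lower in dKO-E than cKO-E. In cKO-E against ctrl 1 of these 8 was higher and 1 lower. Between the mutants 2 of 9 apical progenitor markers were higher and 1 lower in dKO-E, and 0 of 5 intermediate progenitor markers were called. In dKO-E against ctrl, 10% of all genes were lower and 5.45% higher. There 2 of 8 cortical neuron markers were called lower, with all 8 below 0, and 2 of 9 apical progenitor markers were lower. Of the 10 cell cycle markers 1 was higher and 1 lower, and of the 5 intermediate progenitor markers 0 were called. *Sox2* and *Tubb3* were listed at 0 in every library, and the whole span of each is overlapped by another annotated gene.

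Microglia markers summed to 8.31 to 19.3 CPM in ctrl, 34.9 to 44.8 in cKO-E and 8.41 to 11.6 in dKO-E, and p53 targets to 167 to 185, 380.2 to 462 and 130.5 to 164 CPM. In cKO-E against ctrl, 4 of 10 microglia markers and 10 of 10 p53 targets passed the count filter, and all of these were higher. In dKO-E against ctrl only 1 and 4 passed it. Many were thus tested only with cKO-E, where they are high, in the fit, so these counts are no independent support. The paper had already reported p53 targets, with *Ano3* and *Eda2r* named, and microglia genes among the genes raised in cKO-E. It also reported that this rise was almost fully reversed in dKO-E. Interneuron markers summed to 9.67 to 84.1, 65.2 to 119.6 and 29.2 to 70.2 CPM. Of the 7 listed, 4 passed the count filter in cKO-E against ctrl, and 1 of them was higher. When the mutants were compared, 4 passed it and all 4 had less in dKO-E, where 9.42% of all genes did. In dKO-E against ctrl 3 passed it and 0 were called. The median sum was highest in cKO-E, and the filter depends on the libraries in the fit. These interneuron counts are therefore no independent support either. Endothelial markers summed to 39.1 to 75.0, 49.2 to 67.7 and 38.4 to 90.2 CPM, and erythroid markers to 46.2 to 123, 56.4 to 87.3 and 33.6 to 114 CPM, with 0 of the tested genes of either list called in any comparison by edgeR and 1, *Pecam1* in dKO-E, at an unadjusted p under 0.05. What part these shifts have in the changes of the members was not tested.

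**Figure D4:**
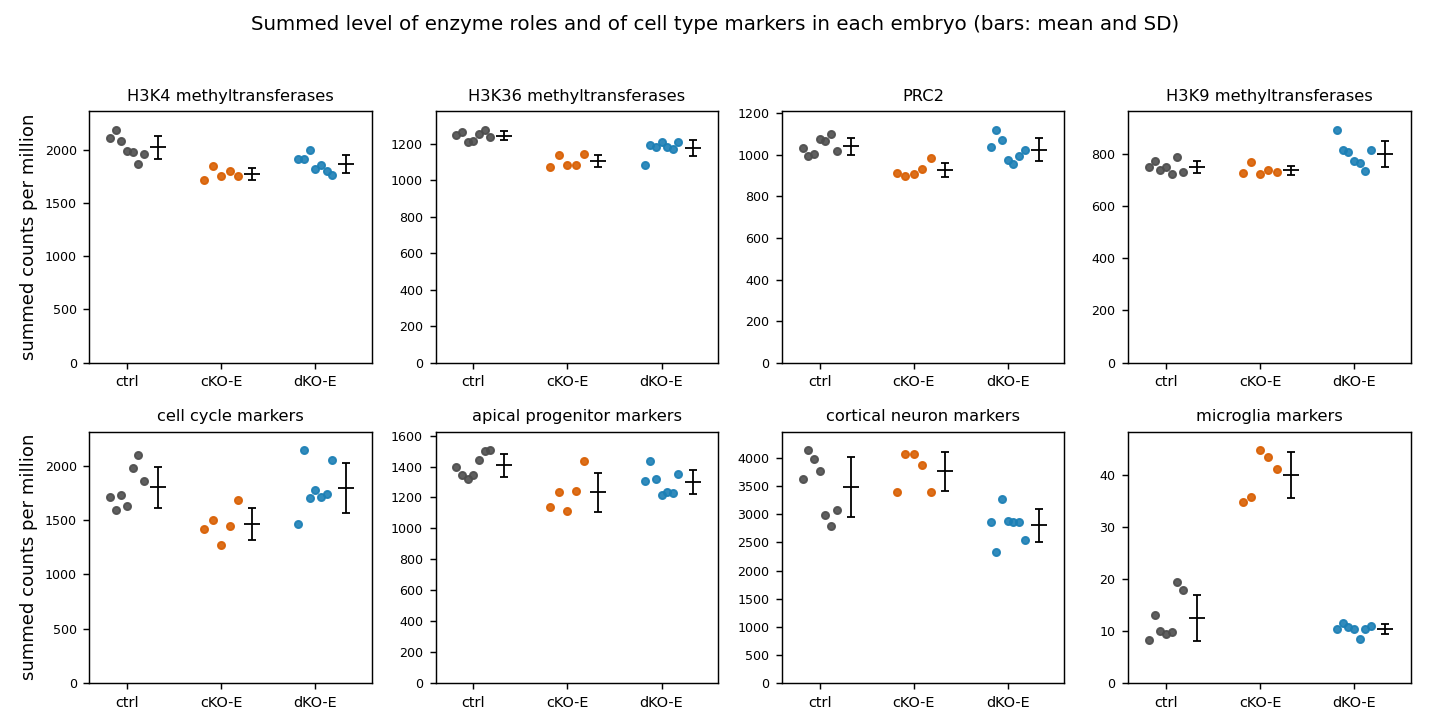
Summed CPM (vertical axis, from 0) of 4 enzyme roles (top row) and 4 marker lists (bottom row), 1 point per embryo, with mean and SD. The sums for H3K4 methyltransferases, H3K36 methyltransferases and PRC2 in cKO-E lie below all ctrl embryos, and those for microglia markers above all others.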

How the data were processed

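RNA of E13.5 cortex was measured as 1 library per embryo. The authors depleted ribosomal RNA, prepared Click-seq libraries with molecular identifiers, trimmed reads with cutadapt 1.13, aligned them with STAR 2.5.2a to GRCm38 (mm10), removed duplicates with UMI-tools 0.5.3 and counted with HTSeq 0.6.1p1. The deposited values are raw counts per gene. Annotation release, feature type and strand setting are not given in the sources used here, and lines that name no gene (23.3 to 31.9% of the deposited counts) were left out. Reads that stay ambiguous between genes are dropped by this counting.

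Gene symbols came from GENCODE M21, in which 51719 of 51912 identifiers were found. Members and lists were chosen with earlier results of these data known. Genes were filtered by filterByExpr (minimum count 10), normalized by TMM and tested with the quasi-likelihood test of edgeR 4.0.16 in R 4.3.3, in a fit of its own per comparison without covariates. P values were adjusted by Benjamini-Hochberg over all genes tested, and 0.05 was used for every comparison where the study used 0.001. The SE is the log2 fold change divided by the square root of the F statistic, and 95% intervals use the t distribution of that fit. CPM used TMM factors over all 19 libraries, and a count of 3 corresponds to 0.371 to 3.65 CPM.

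Every member is accounted for. Group values are given for members called in any comparison and per-embryo values for the 10 with the smallest adjusted p, to which *Kdm5a* was added after its values were seen. Of the related genes, those called in both mutants or between the mutants are named. Marker lists are given by counts and summed CPM. Alternatives used the likelihood-ratio test, DESeq2 1.42.0, other filters and normalizations, covariates, blocks, single batches, 1 sex, 1 fit over all libraries, the rate of 0.001 and each embryo left out. Tests were checked on simulated counts. The spread between embryos is biological and technical together.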

Additional observations from a re-analysis of the deposited data

Results flagged for a closer look

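Of 150 pairs of a gene and a group examined, 8 held an embryo that stood apart from its group, where chance gives about 5%. Among the members these were *Ash1l* in cKO-E E (375 CPM, the others at 344 to 352), *Kdm6b* in cKO-E A (86.3 CPM, the others at 98.8 to 100.3), *Ezh2* in ctrl D (553 CPM, the others at 476 to 507) and *Suv39h2* in dKO-E G (52.2 CPM, the others at 25.1 to 36.4). Among the related genes they were *Dpy30* in ctrl H (37.3 CPM), *Hcfc1* in cKO-E C (171 CPM), *Kdm5c* in cKO-E C (60.5 CPM) and *Phf2* in dKO-E A (188 CPM). cKO-E C was the 1 male of its group, and *Hcfc1* and *Kdm5c* are X-linked.

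A difference between the mutants was tested directly and passed for 16 genes. These were 15.6% of the members and 15.9% of the related genes tested, against 15% of all genes called in either direction. For the members, the log2 fold change of dKO-E against cKO-E was 0.50 for *Suv39h1*, 0.42 for *Suz12*, 0.23 for *Kmt2d*, 0.19 for *Kdm3a* and 0.17 for *Ash1l*. For the related genes it was 0.45 for *Dpy30*, 0.37 for *Uhrf1*, 0.34 for *Pcgf2*, 0.32 for *Rcor2*, 0.27 for *Paxip1*, 0.25 for *Phf2*, 0.24 for *Hcfc1*, 0.23 for *Rnf2*, 0.22 for *Setd7*, 0.20 for *Scmh1* and 0.18 for *Trim28*. Since no litter gave both mutants, litter and genotype cannot be told apart in these differences.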

How the results depend on the processing

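No called member or named gene changed sign while called under any alternative. In cKO-E against ctrl, 10 members were called, 10 to 11 with an embryo left out, 8 in females alone (*Ash1l* and *Dot1l* lost), 7 with litter as a block (*Nsd1*, *Kmt2a* and *Ash1l* lost), 2 at a rate of 0.001 and 2 in batch 2 alone. In dKO-E against ctrl 6 were called, 4 to 7 with an embryo left out, 3 without a count filter, in batch 1 alone (2 of them among the 6) and in males alone, 1 in batch 2 alone and 0 at 0.001. With litter as a block 2 were called there, and only 1 of these was among the 6. That block rests on the 1 litter that held both groups. Between the mutants 5 were called, 2 to 4 with an embryo left out, 3 by the likelihood-ratio test, with RLE or upper quartile factors, without a filter or with batch as a covariate, 2 in batch 1 alone and 0 at 0.001 or in batch 2 alone. With sex as a covariate 6 were called between the mutants, of which *Dot1l* and *Ezh2* were higher and *Kdm4c* lower beside 3 of the 5. For the related genes, 20 in cKO-E became 10 with total counts, 9 with litter as a block, 13 in females alone, 3 at 0.001 and 0 in batch 2 alone (11 to 20 with an embryo left out). The 10 in dKO-E became 6 without a filter, 4 with the letter as replicate block, 2 with litter as a block, at 0.001 or in males alone and 1 in batch 2 alone (7 to 12 left out). The 11 between mutants became 4 in batch 1 alone and 0 at 0.001 (4 to 11 left out), and in batch 2 alone none of them was called while 1 other, *Kdm5c*, was called lower in dKO-E. The cause of these shifts was not tested.

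Embryos of different groups share letters, which the labels do not tie to a litter or day, and deviations of same-lettered embryos correlated at -0.36 to 0.14, so they were not taken as pairs. With the letter as replicate block, 11 members were called in cKO-E, 3 in dKO-E and 2 between the mutants. A litter block between the mutants was not possible. Batch 2 alone, 1 sex alone and batch with sex as covariates were added after the data had been seen.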
